A study of Mus musculus with 30 samples.

Results

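The cytochrome P450 genes are a superfamily of haem-containing monooxygenases that hydroxylate or epoxidise lipids, sterols, steroids, retinoids and foreign compounds. Members were the protein-coding rows whose symbol had the form of a P450 gene (Cyp, a number, a letter and a number), leaving out the Cyp4a subfamily and the vitamin D genes Cyp24a1 and Cyp27b1 (7 rows in all). This gave 87 of 41128 rows. Roles were assigned by subfamily name. They comprised 23 genes of the Cyp2c and Cyp2j type, grouped as epoxygenases, and 12 genes of the CYP4 family. A further 35 were grouped under xenobiotic and lipid metabolism, 12 under sterol and steroid metabolism and 5 under retinoid and other metabolism. Not every gene of a group need have the activity that its group is named for.

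RNA of kidney tissue (16 mice, 4 in each of 4 groups) and of aortae (14 mice) was sequenced, 1 library per mouse. All mice were male, of C57Bl6J background, and carried a tamoxifen-inducible Cre recombinase driven by the smooth muscle promoter Smmhc. KO mice also carried a floxed Egfr, so that the deletion was directed to smooth muscle cells, whereas WT mice had the Cre without loxP sites, and all mice of both genotypes received tamoxifen (1 mg per day for 5 days). Standard fat diet (SFD) or high fat diet (HFD) was fed for 18 weeks from 6 weeks of age, beginning 7 days after tamoxifen, which gave the groups WT-SFD, WT-HFD, KO-SFD and KO-HFD. Aortae numbered 3 in each SFD group and 4 in each HFD group, and 3 mice gave both tissues. The total count was 16354880 to 28331314 per kidney and 6403699 to 13052870 per aorta.

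The organs showed the markers of their labels. Slc34a1, the phosphate transporter of the proximal tubule, stood at 5895 to 10800 FPM (counts per 1000000, scaled with edgeR's TMM factors) in the kidneys and at 0 to 0.188 FPM in the aortae. Myh11, smooth muscle myosin, was present at 4015 to 7283 FPM in the aortae and at 13.56 to 25.99 FPM in the kidneys. Egfr, the targeted gene, ran from 39.48 to 65.08 FPM in WT and from 26.79 to 40.57 FPM in KO aortae, and over both diets it was lower in KO by a log2 fold change of -0.67 ± 0.11 (SE, edgeR adjusted p = 0.0141). In kidney tissue, Egfr ran from 36.94 to 60.79 FPM and did not separate the genotypes (-0.00 ± 0.09, edgeR adjusted p = 0.999). Some libraries stood apart. KO-SFD-1318 and KO-SFD-1319 kidneys had the highest Cyp2a5, and 4 SFD aortae (WT-SFD-1309, WT-SFD-1310, KO-SFD-1319 and KO-SFD-1452) were rich in adipocyte transcripts, so values that rest on these are also given without them. Without both kidneys, 7 P450 genes were called by diet over both genotypes in place of 10, beside 405 of 15514 genes in place of 674 of 15034.

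Most P450 enzymes sit in the endoplasmic reticulum and take their electrons from the reductase Por, while a few work in mitochondria. In the mouse kidney the proximal tubule holds most of the P450 content. Epoxygenases turn arachidonic acid into epoxyeicosatrienoic acids, CYP4 enzymes hydroxylate the end of fatty acid chains, and many mouse genes of the Cyp2a, Cyp2c, Cyp2d and Cyp4b type are known to differ between males and females. In whole-tissue RNA, fewer cells of a type and less RNA per cell cannot be told apart.

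A count was found for 70 of the 87 genes in at least 1 kidney and for 58 in at least 1 aorta. Without a count in any of the 30 libraries were 12 genes. Of these, 5 lie on chromosome 9, on which no gene had a count (Cyp1a1, Cyp1a2, Cyp11a1, Cyp19a1 and Cyp8b1), so nothing can be said about them. The other 7 (Cyp3a16, Cyp3a44, Cyp11b2, Cyp2c66, Cyp2c39, Cyp2c37 and Cyp2c50) lie on chromosomes that do have counts. In the kidney 43 genes passed edgeR's low count filter. The other 44 had at most 14 counts in a library and were not tested.

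In the kidney, P450 transcripts were dominated by a few genes. Cyp4b1, an oxidase of fatty acids and some xenobiotics, Cyp2j5, a renal epoxygenase, Cyp2e1, the ethanol-inducible oxidase, and Cyp2a4, a steroid hydroxylase, together held 80.7% of the summed P450 FPM. Per length of exon the order was Cyp4b1 (mean 2090 FPM per kb over 16 kidneys), Cyp2e1 (546.7), Cyp2j5 (515.2), Cyp2a4 (375.3), Cyp2d26 (113.8), Cyp2d9 (110.8), Cyp2a5 (107.7), Cyp2j11 (106.9), Cyp7b1 (94.42) and Cyp2j13 (45.59). Neighbours such as Cyp2e1 and Cyp2j5, or Cyp2d26, Cyp2d9, Cyp2a5 and Cyp2j11, were closer than the range of each over the mice. The levels spread over more than 4 powers of 10, and 22 genes had a mean of at least 10 FPM and 34 of at least 1 FPM.

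**Figure D1:**
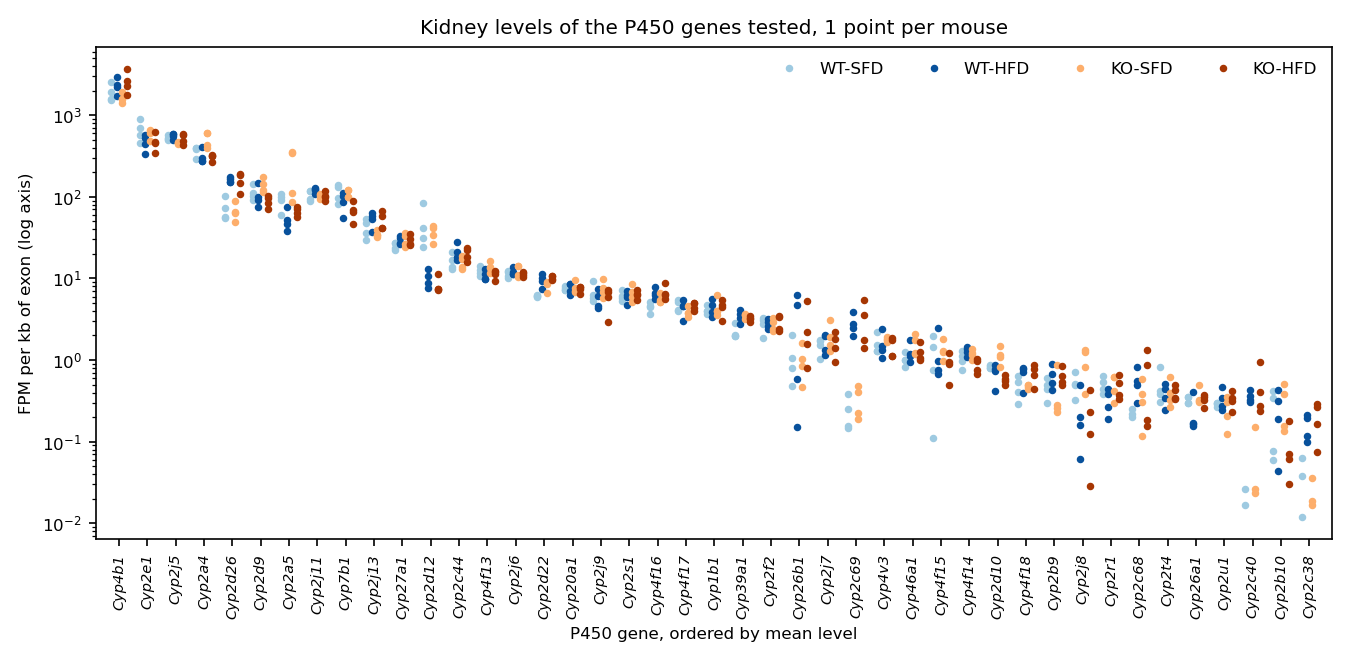
Level of the 43 tested P450 genes in the kidney, as FPM per kb of exon on a log axis, with 1 point per mouse coloured by group and genes ordered by mean; libraries at 0 are not drawn. Cyp4b1 lies at the top in every group, while Cyp2d26, Cyp2d12 and Cyp2c69 show SFD and HFD mice apart from each other.

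The summed P450 level overlapped between the groups. It was 9341 ± 1645 FPM in WT-SFD, 9824 ± 1698 in WT-HFD, 9021 ± 822.6 in KO-SFD and 10270 ± 2301 in KO-HFD kidneys (SD, n = 4 each), which was 0.769% to 1.19% of a library. Cyp4b1 was the top gene in all 16 kidneys with 36.8% to 61.8% of this sum. It ran from 3470 to 5689 FPM in WT-SFD, 3828 to 6576 in WT-HFD, 3183 to 4368 in KO-SFD and 3978 to 8199 in KO-HFD kidneys. These ranges overlap, and the mean diet difference of 0.47 ± 0.16 on the log2 scale did not pass the test (edgeR adjusted p = 0.104).

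The question of the diet comparison is how kidneys of mice on HFD differ from those on SFD. Of the 43 tested P450 genes, 6 were called at an edgeR adjusted p under 0.05 in WT (against 0.911% of the 15034 genes tested) and 7 in KO (16.3%, against 2.3%; 4 higher, against 1.53%, and 3 lower, against 0.772%). Over the mean of both genotypes, which uses the same 16 kidneys, 10 were called (23.3%, against 4.48%), 6 of them higher on HFD (against 2.89% of all genes) and 4 lower (against 1.6%). At an unadjusted p under 0.05 there were 10 in WT, 17 in KO and 22 over both genotypes, beside 7.9%, 15.8% and 17.9% of all genes. Higher were Cyp2c69, Cyp2c40, Cyp2c38, Cyp2d26, Cyp2d22 and Cyp4f16, and lower were Cyp2d12, Cyp2a5, Cyp2a4 and Cyp2j8. Of the 43, 6 genes (Cyp2c38, Cyp2c40, Cyp2c68, Cyp2c69, Cyp2j8 and Cyp2b10) exceeded the filter's limit in at least 4 kidneys of one diet only, so that a gene high in one diet was favoured for testing. Among the 37 that did so in each diet, a choice made after seeing the data, 4 were called in WT (against 0.852% of 14202 genes chosen in the same way), 4 in KO (against 2.21%) and 6 over both genotypes (against 4.32%), 3 of these higher and 3 lower. The median log2 fold change of the 43 was -0.01, beside -0.01 for all genes. Kidneys did not overlap between the diets for 7 higher and 1 lower P450 gene in WT (3.02% and 1.99% of all genes), for 6 and 6 in KO (5.02% and 3.85%), and for 4 and 1 when all 8 HFD were set against all 8 SFD kidneys (0.998% and 0.273%). Of the higher genes in these counts, 4 of 7, 3 of 6 and 3 of 4 exceeded the filter's limit in one diet only, so these shares are not read against the background. By role, 3 of 12 tested genes of the Cyp2c and Cyp2j group rose and 1 fell, all 4 of them genes that exceeded the limit in one diet only. Further, 1 of 8 tested CYP4 genes rose, 2 of 15 tested xenobiotic and lipid genes rose and 3 fell, and none of 4 tested sterol and steroid or of 4 tested retinoid and other genes passed.

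**Figure D2:**
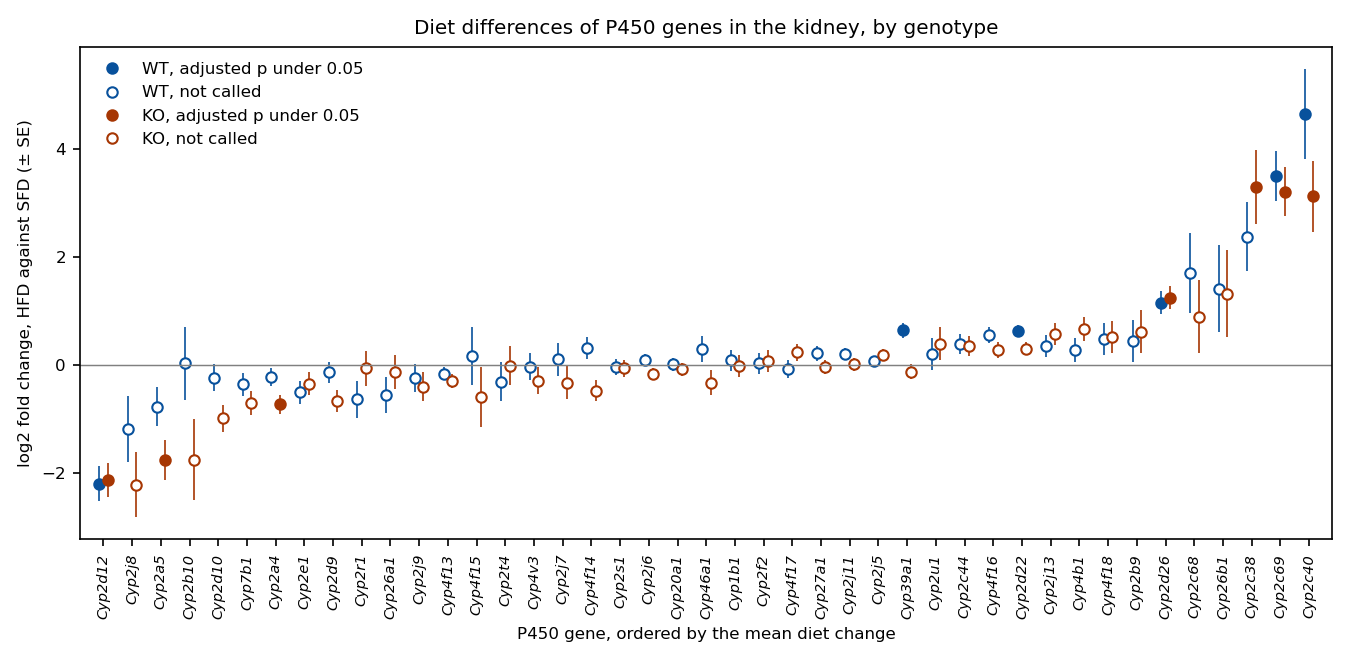
Log2 fold change of HFD against SFD in the kidney for the 43 tested P450 genes, WT in blue and KO in brown, with bars of 1 SE; filled points have an adjusted p under 0.05. Genes are ordered by the mean change, from Cyp2d12 at -2.16 to Cyp2c40 at 3.88, and most lie near 0.

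Of the 8 Cyp2d genes of chromosome 15, 5 were tested, and over both genotypes 2 rose (Cyp2d26 and Cyp2d22) and 1 fell (Cyp2d12). Cyp2d12 (ENSMUSG00000096852, chr15:82555072-82560403, GRCm38, plus strand) stood at 327.7, 162.3, 94.87 and 121.4 FPM in WT-SFD and at 34.05, 29.34, 41.44 and 50.17 FPM in WT-HFD kidneys. In KO-SFD it stood at 170, 160.2, 103.7 and 133.6 FPM, and in KO-HFD at 27.88, 44.3, 28.87 and 28.86 FPM. All 8 HFD kidneys thus lay below all 8 SFD kidneys. The log2 fold change was -2.19 ± 0.32 in WT (edgeR adjusted p = 0.00146), -2.12 ± 0.32 in KO (adjusted p = 0.00123) and -2.16 ± 0.22 for the mean (adjusted p = 1.7e-05).

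Cyp2d26 (ENSMUSG00000022445, chr15:82790101-82794294, minus strand), the last gene of the cluster, was higher on HFD. It stood at 99.64, 182.7, 101.3 and 132.1 FPM in WT-SFD against 292.1, 312.1, 273.6 and 271.4 FPM in WT-HFD kidneys. In KO-SFD the values were 115.6, 159.2, 87.93 and 111.8 FPM, and in KO-HFD 193.4, 265.4, 327.5 and 338 FPM. Again no SFD kidney reached the lowest HFD kidney. The gene rose by a log2 fold change of 1.16 ± 0.21 in WT (edgeR adjusted p = 0.0102) and 1.24 ± 0.21 in KO (adjusted p = 0.00368). Group means were 128.9 ± 38.8, 287.3 ± 19, 118.6 ± 29.7 and 281.1 ± 66.6 FPM (SD, n = 4) in the order WT-SFD, WT-HFD, KO-SFD and KO-HFD.

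Cyp2d22 (ENSMUSG00000061740, chr15:82370527-82380260, minus strand), the first gene of the cluster, was narrowly spread in WT-SFD kidneys at 23.64, 24.69, 23.33 and 23.76 FPM. WT-HFD kidneys had 39.05, 43.73, 28.76 and 36.22 FPM, KO-SFD 34.43, 35.14, 33.44 and 25.78 FPM, and KO-HFD 38.3, 37.07, 41.59 and 41.98 FPM. KO-SFD kidneys therefore lay above WT-SFD kidneys, and the diet difference was 0.63 ± 0.12 in WT (edgeR adjusted p = 0.0125) and 0.30 ± 0.12 in KO (adjusted p = 0.222). The call in WT was lost without WT-SFD-1694, WT-HFD-1535 or WT-HFD-1613 (highest adjusted p = 0.0527). The difference between these diet effects was not called (-0.33 ± 0.17, edgeR adjusted p = 1). Over both genotypes Cyp2d22 rose by 0.47 ± 0.08 (adjusted p = 0.00291). Cyp2d9, a testosterone hydroxylase typical of male mice, did not pass (-0.40 ± 0.14, adjusted p = 0.136), nor did Cyp2d10 (-0.60 ± 0.18, adjusted p = 0.0634). Of the 8 Cyp2d genes, Cyp2d11, Cyp2d34 and Cyp2d40 had at most 8 counts in a kidney and were not tested.

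**Figure D3:**
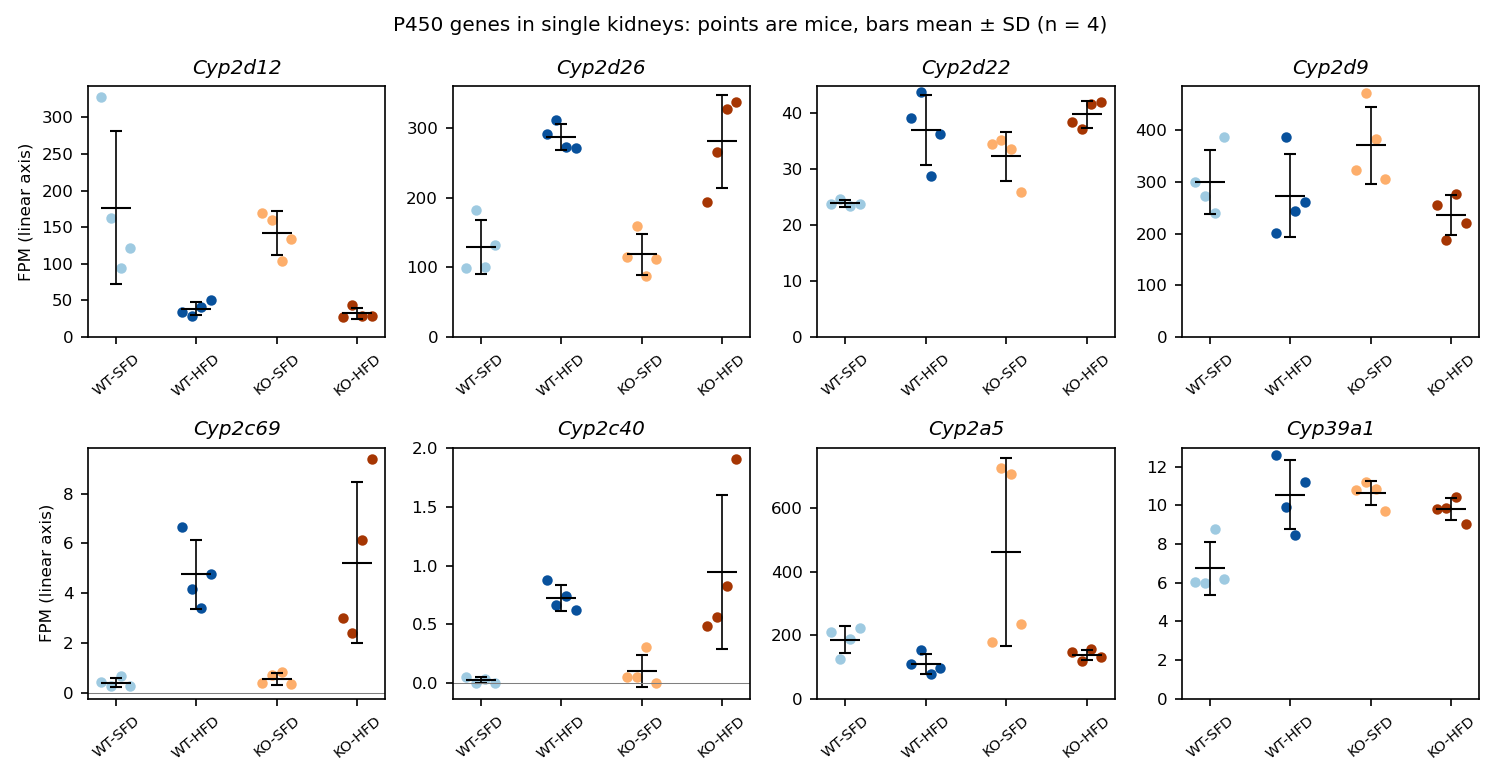
FPM of 8 P450 genes in single kidneys on linear axes, with points for mice and bars for the mean ± SD (n = 4 per group). Cyp2d12 is low and Cyp2d26 high in all HFD kidneys, and KO-SFD shows 2 kidneys with Cyp2a5 at 725 and 708 FPM.

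In the Cyp2c cluster of chromosome 19, some genes that on SFD were at or near 0 in these kidneys had more counts on HFD. Cyp2c69 (ENSMUSG00000092008, chr19:39842814-39886799, minus strand) stood at 0.434, 0.251, 0.651 and 0.269 FPM in WT-SFD and 6.66, 4.18, 3.41 and 4.78 FPM in WT-HFD kidneys. In KO-SFD it stood at 0.386, 0.701, 0.818 and 0.328 FPM, and in KO-HFD at 2.98, 2.38, 6.14 and 9.4 FPM. The diets did not overlap in either genotype. The log2 fold change was 3.50 ± 0.46 in WT (edgeR adjusted p = 0.000797) and 3.21 ± 0.45 in KO (adjusted p = 0.000827). In counts this was 386 on HFD against 37 on SFD in WT (ratio per total count 11.3, 95% interval 8.07 to 16.3, counting error only) and 394 against 43 in KO (9.16, 6.67 to 12.9). Cyp2c69 was a low gene, rank 27 per length with a mean of 1.602 FPM per kb over all 16 kidneys.

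Cyp2c40, next to it, and Cyp2c38, farther along the cluster, were also higher on HFD, at still lower levels, while Cyp2c39 between them had no count. Cyp2c40 (ENSMUSG00000025004, chr19:39767071-39812814, minus strand) had 2 counts in the 4 WT-SFD and 58 in the 4 WT-HFD kidneys (ratio per total count 31.5, 8.33 to 266). In KO it had 8 counts on SFD, 6 of them in KO-SFD-1319, and 73 on HFD (9.12, 4.39 to 21.9). Cyp2c38 (ENSMUSG00000032808, chr19:39389556-39463075, minus strand) had 7 counts on SFD and 36 on HFD in WT (5.58, 2.45 to 14.9) and 4 and 43 in KO (10.7, 3.9 to 41.2). The edgeR values over both genotypes were 3.88 ± 0.53 for Cyp2c40 (adjusted p = 0.000254) and 2.83 ± 0.47 for Cyp2c38 (adjusted p = 0.0015). Without KO-SFD-1318 and KO-SFD-1319 they were 4.77 and 3.27. In KO alone the value of Cyp2c40 was 3.12, and 4.91 without these 2 kidneys. No SFD kidney exceeded the filter's limit of 0.512 CPM for either gene, so both were tested only because of their HFD kidneys. For Cyp2c69 the limit was exceeded in 3 SFD and all 8 HFD kidneys, which is too few on SFD alone. The calls of these 3 genes carry no weight as a count. Cyp2c68, the next gene of the cluster, had 24 counts on SFD and 74 on HFD in WT (3.35, 2.09 to 5.55) and 46 and 91 in KO (1.98, 1.37 to 2.88), with a mean difference of 1.30 ± 0.50 that did not pass (edgeR adjusted p = 0.167).

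Assignment among these genes is uncertain. Of all windows of 100 bases in their transcripts, 35.4% of those of Cyp2c69 and 34.4% of those of Cyp2c40 also occur in another gene of the cluster, against 19.8% for Cyp2c68, 23.7% for Cyp2c67 and 0% for Cyp2c38. How reads that map to several places were counted is not given in the sources used here. Upstream sequences are shown 5′ to 3′ on the gene's strand for genes that moved with the diet, from RefSeq on GRCm38.p6, within 250 bases before the start site. Capitals mark CAAAGNNCA, a short form of the HNF4 alpha motif, searched on both strands.
Cyp2c69 (chr19:39886800-39887019): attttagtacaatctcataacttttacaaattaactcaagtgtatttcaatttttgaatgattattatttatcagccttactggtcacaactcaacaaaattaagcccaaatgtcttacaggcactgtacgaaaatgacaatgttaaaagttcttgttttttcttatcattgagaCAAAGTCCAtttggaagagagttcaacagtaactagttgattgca
Cyp2c40 (chr19:39812815-39813064): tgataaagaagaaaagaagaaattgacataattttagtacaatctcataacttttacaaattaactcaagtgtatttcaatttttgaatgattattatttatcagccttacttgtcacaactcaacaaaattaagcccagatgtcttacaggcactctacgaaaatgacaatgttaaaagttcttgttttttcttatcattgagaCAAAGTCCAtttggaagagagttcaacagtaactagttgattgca
Cyp2c38 (chr19:39463076-39463325): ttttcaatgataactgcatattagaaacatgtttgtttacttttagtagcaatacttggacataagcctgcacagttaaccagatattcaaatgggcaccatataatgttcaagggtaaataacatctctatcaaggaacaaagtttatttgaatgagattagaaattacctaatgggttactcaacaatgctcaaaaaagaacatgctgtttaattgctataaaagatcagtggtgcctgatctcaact
Cyp2d26 (chr15:82794295-82794495): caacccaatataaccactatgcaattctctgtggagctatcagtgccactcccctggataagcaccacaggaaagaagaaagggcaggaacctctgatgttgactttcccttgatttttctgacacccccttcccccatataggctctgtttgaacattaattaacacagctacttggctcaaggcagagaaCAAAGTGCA
The sequences of Cyp2c69 and Cyp2c40 were identical at 98.6% of 220 aligned bases, those of Cyp2c69 and Cyp2c38 at 74.7% of 198. Cyp2c69 and Cyp2c40 carried CAAAGTCCA and Cyp2d26 CAAAGTGCA, while no match was found in the windows of Cyp2c38, Cyp2a5 and Cyp2a4. Genes that were tested and not called by diet had matches too, namely CAAAGTCCA in Cyp2c68 and CAAAGNNCA in Cyp4b1, Cyp2d9, Cyp2d10 and Cyp26a1. Over windows of 300 bases, CAAAGNNCA occurred in 6.37% of 27025 promoters and in 24 of the 70 P450 promoters in the table (34.3%). CAAAGTCCA, which CAAAGNNCA contains, occurred in 0.477% of all and in 9 of the 70. A match is a description and not a binding site, and the motif was chosen after the sequences had been seen. Hnf4a itself stood at 787.9 to 1041 FPM in the kidneys and differed by 0.04 ± 0.08 between the diets (edgeR adjusted p = 0.828).

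Some P450 genes known from the liver were almost absent, although Cyp2e1, Cyp2d9 and Cyp2d26, which the liver also expresses, were abundant. Cyp3a11 had 0 to 2 counts and Cyp2c29 0 to 4 in a kidney, Cyp2c37, Cyp2c50 and Cyp2c70 had none in any kidney, and none of the 7 Cyp3a genes passed the filter. Of the 7 liver markers, 5 were tested and 3 were higher on HFD over both genotypes, namely the fibrinogen gene Fgb (2.38 ± 0.38, edgeR adjusted p = 0.00107; 0.2045 to 1.571 FPM on SFD and 0.8164 to 4.774 on HFD, so that it passed the filter through its HFD kidneys), Alb (0.78 ± 0.17, adjusted p = 0.0113) and Apoh (0.79 ± 0.20, adjusted p = 0.0342). Their level was low, with Alb at 4.397 to 13.14 FPM and Ahsg at 0 to 0.145 FPM. The most abundant gene of the list was Serpina1b, and the summed list ran from 69.93 to 237.9 FPM in WT-SFD, 113.5 to 173.1 in WT-HFD, 111.5 to 233.6 in KO-SFD and 73.15 to 144.6 in KO-HFD kidneys. Whether these transcripts had a part in the Cyp2c result was not tested.

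**Figure D4:**
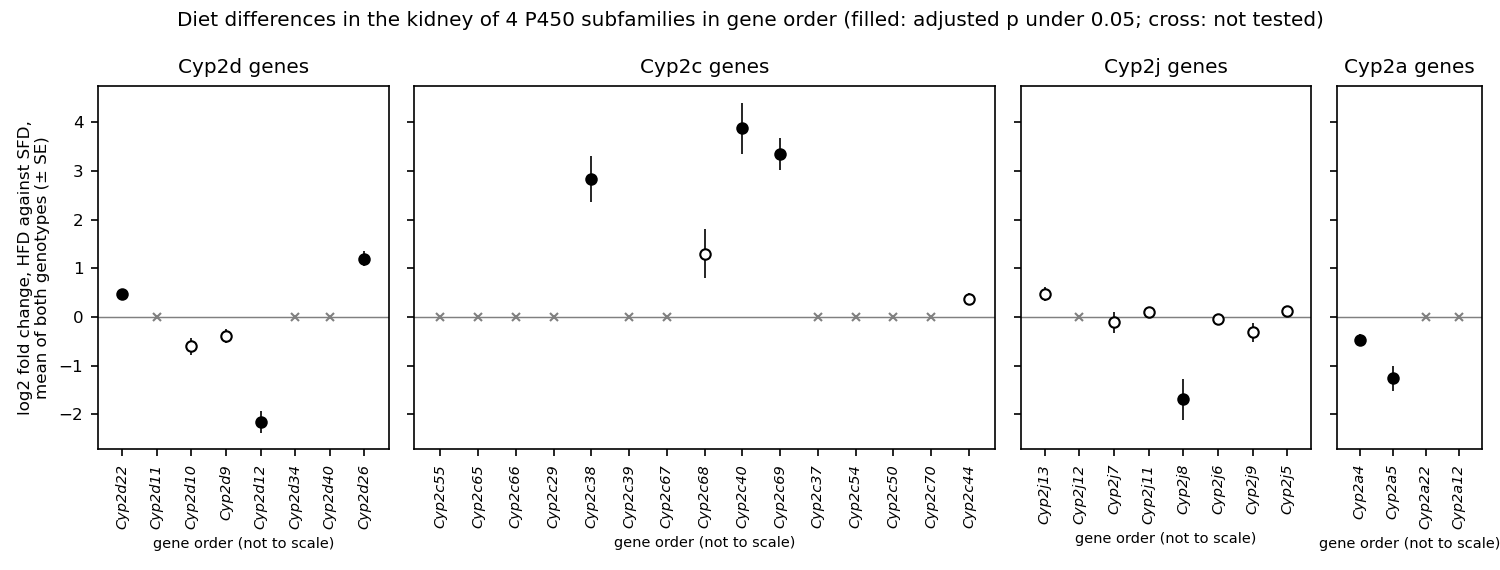
Mean diet change (log2 fold change of HFD against SFD over both genotypes, ± SE) of the Cyp2d, Cyp2c, Cyp2j and Cyp2a genes in the kidney in their order along the chromosome, with genes evenly spaced; filled points have an adjusted p under 0.05, open points do not, and crosses at 0 mark genes not tested. In the Cyp2d cluster Cyp2d12 lies at -2.16 and Cyp2d26 at 1.20.

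Of the 4 Cyp2a genes of chromosome 7, which hydroxylate steroids and coumarin, 2 could be tested, and both fell over both genotypes. Cyp2a22 had no count in a kidney and Cyp2a12 at most 1. Cyp2a5 (ENSMUSG00000005547, chr7:26835305-26843548, plus strand) stood at 208.2, 124.7, 187.6 and 221.1 FPM in WT-SFD, 107.4, 153.3, 78.1 and 96.76 in WT-HFD, 178.5, 725, 708 and 233.6 in KO-SFD and 145.2, 118.1, 156.6 and 130.5 in KO-HFD kidneys. The diets did not overlap in KO, where KO-SFD-1318 and KO-SFD-1319 stood far above all other kidneys, and overlapped in WT. The log2 fold change was -1.75 ± 0.37 in KO (edgeR adjusted p = 0.0174), -0.77 ± 0.36 in WT (adjusted p = 0.632) and -1.26 ± 0.26 for the mean (adjusted p = 0.00851). Without these 2 kidneys, a choice made after seeing the data, the value in KO was -0.58 (edgeR adjusted p = 0.453) and the mean -0.68 (adjusted p = 0.0339). The call in KO was also lost without KO-SFD-1318, KO-SFD-1319, KO-HFD-1504 or KO-HFD-1558 alone, and that of the mean in no alternative fit. The same 2 kidneys had the highest levels of the clock gene Dbp, 234.6 and 253.3 FPM against 71.17 and 95.59 FPM in the other KO-SFD kidneys, and low Arntl, 3.018 and 1.022 FPM against 10.56 and 8.412 FPM. Dbp was also at 169.9 and 163.8 FPM in KO-HFD-1437 and KO-HFD-1520, which had Cyp2a5 at 145.2 and 156.6 FPM, the highest of KO-HFD. WT-HFD-1613 was the highest of WT-HFD in both Dbp (150 FPM) and Cyp2a5 (153.3 FPM). In WT-SFD the highest Dbp was in WT-SFD-1309 (83.16 FPM) and the highest Cyp2a5 in WT-SFD-1695 (221.1 FPM). The part of this in the result was not tested.

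Cyp2a4 (ENSMUSG00000074254, chr7:26307169-26315088, plus strand) followed with smaller differences. It stood at 687.6, 666.4, 506.8 and 691.2 FPM in WT-SFD, 483, 714.1, 514.7 and 478.2 in WT-HFD, 688.4, 1062, 1060 and 738.1 in KO-SFD and 571.9, 466.2, 551.8 and 556.1 in KO-HFD kidneys. KO-SFD-1318 and KO-SFD-1319 were again the highest. The gene fell by 0.73 ± 0.17 on the log2 scale in KO (edgeR adjusted p = 0.0295) and by 0.47 ± 0.12 over both genotypes (adjusted p = 0.0305). Without the 2 kidneys neither value passed (-0.41 in KO, edgeR adjusted p = 0.452, and -0.32 for the mean, adjusted p = 0.18). The mean was also lost without any 1 of 9 kidneys (WT-SFD-1309, WT-SFD-1695, WT-HFD-1535, WT-HFD-1641, WT-HFD-1642, KO-SFD-1318, KO-SFD-1319, KO-HFD-1504 or KO-HFD-1558), and the call in KO without any 1 of 5 (these last 4 or KO-HFD-1520). Cyp2a4 overlaps a gene on the other strand (Gm42375), and the strand setting of the counting is not given in the sources used here. The pair also shares sequence. Of the windows of 100 bases, 12.1% of Cyp2a5 and 11.2% of Cyp2a4 occur in another gene, and the upstream sequences are 98.4% identical over 249 bases.
Cyp2a5 (chr7:26835089-26835304, RefSeq, GRCm38.p6): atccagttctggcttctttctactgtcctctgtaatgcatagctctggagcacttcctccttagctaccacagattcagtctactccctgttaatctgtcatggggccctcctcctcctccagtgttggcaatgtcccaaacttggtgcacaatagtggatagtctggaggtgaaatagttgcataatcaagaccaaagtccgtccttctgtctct

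Of the 7 tested genes of the Cyp2j type 1 passed, and the abundant ones did not. Cyp2j5 (ENSMUSG00000052520) stood at 1238 ± 82.4, 1300 ± 94.5, 1074 ± 16 and 1220 ± 173.9 FPM (SD, n = 4) in WT-SFD, WT-HFD, KO-SFD and KO-HFD, with a mean diet difference of 0.13 ± 0.08 (edgeR adjusted p = 0.409). Cyp2j11 differed by 0.11 ± 0.08 (adjusted p = 0.504) and Cyp2j13 by 0.47 ± 0.14 (adjusted p = 0.0742). Cyp2j8 (ENSMUSG00000082932, chr4:96444596-96507386, minus strand), a low gene, was the one that passed, and it exceeded the filter's limit in 7 SFD but only 2 HFD kidneys. It stood at 0.488, 1.07, 0.754 and 0.762 FPM in WT-SFD, 0.0925, 0.306, 0.739 and 0.239 in WT-HFD, 0.579, 1.89, 1.99 and 1.26 in KO-SFD and 0.651, 0.0433, 0.19 and 0.352 in KO-HFD kidneys. The groups overlapped. The mean log2 fold change was -1.69 ± 0.43 (edgeR adjusted p = 0.0308), and it did not pass without KO-SFD-1318 and KO-SFD-1319 (-1.37, adjusted p = 0.173). The call was lost in 10 of 23 alternatives, 9 of them without a single kidney (WT-SFD-1446, WT-SFD-1694, WT-HFD-1535, WT-HFD-1613, WT-HFD-1642, KO-SFD-1318, KO-SFD-1319, KO-HFD-1520 or KO-HFD-1558). Cyp2c44, an epoxygenase of the kidney, differed by 0.37 ± 0.13 (adjusted p = 0.133).

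In the CYP4 family, whose Cyp4f members hydroxylate leukotrienes and other lipids, 1 of 8 tested genes passed. Cyp4f16 (ENSMUSG00000048440, chr17:32536558-32551798, plus strand) stood at 11.4, 14.2, 15.9 and 13.6 FPM in WT-SFD, 20.5, 24.1, 17.1 and 19.4 in WT-HFD, 15.8, 20.2, 16.7 and 15.8 in KO-SFD and 19.8, 17.2, 27.1 and 19.1 in KO-HFD kidneys. WT kidneys separated by diet and KO kidneys did not. The mean log2 fold change was 0.42 ± 0.11 (edgeR adjusted p = 0.0338), and 0.47 without KO-SFD-1318 and KO-SFD-1319 (adjusted p = 0.0524). The call was lost in 11 of 23 alternatives (highest adjusted p = 0.101), 9 of them without a single kidney (WT-SFD-1309, WT-SFD-1695, WT-HFD-1535, WT-HFD-1613, WT-HFD-1642, KO-SFD-1303, KO-SFD-1319, KO-SFD-1451 or KO-HFD-1520). Of the xenobiotic genes outside the Cyp2a and Cyp2d subfamilies, Cyp2e1 had 1415 ± 395.4, 1001 ± 223, 1287 ± 162.2 and 1016 ± 240 FPM (SD, n = 4) in WT-SFD, WT-HFD, KO-SFD and KO-HFD, a mean difference of -0.42 ± 0.15 (adjusted p = 0.135).

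Of the sterol and steroid genes, Cyp7b1, an oxysterol hydroxylase, had 243.4 ± 59.5, 190.2 ± 53.1, 238.1 ± 26.8 and 146.4 ± 37.5 FPM in the same order of groups and did not pass (-0.53 ± 0.16, edgeR adjusted p = 0.0671). Cyp27a1, the mitochondrial sterol oxidase, differed by 0.10 ± 0.09 (adjusted p = 0.64). Cyp39a1 (ENSMUSG00000023963, chr17:43667425-43751431, plus strand), another oxysterol hydroxylase, was called in WT. It stood at 6.02, 5.97, 8.77 and 6.19 FPM in WT-SFD, 12.63, 9.9, 8.47 and 11.23 in WT-HFD, 10.8, 11.21, 10.84 and 9.72 in KO-SFD and 9.82, 9.86, 10.45 and 9.05 in KO-HFD kidneys. WT-SFD was the group with the lowest mean, although its highest kidney reached the lowest of WT-HFD, and the other groups overlapped. The log2 fold change was 0.64 ± 0.14 in WT (edgeR adjusted p = 0.045) and -0.12 ± 0.14 in KO (adjusted p = 0.719). The call in WT sits at the limit and was lost in 11 of 16 alternatives, 6 of them without a single kidney (WT-SFD-1309, WT-SFD-1446, WT-SFD-1695, WT-HFD-1535, WT-HFD-1613 or WT-HFD-1642). The adrenal genes of steroid synthesis were at or near 0 in the kidney, with no count for Cyp11b1, 0 to 2 for Cyp21a1 and 1 to 11 for Cyp17a1. Of the retinoid genes, Cyp26b1, which degrades retinoic acid, ran from 0.816 to 33.14 FPM over the mice and did not pass (1.37 ± 0.57, adjusted p = 0.206).

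The genotype comparison asks what the loss of Egfr in smooth muscle cells does to the kidney. No P450 gene was called in KO against WT on SFD, on HFD or over both diets, nor for the interaction of diet and genotype, beside 0.0133%, 0.00665%, 0.0133% and 0% of all genes. At an unadjusted p under 0.05 edgeR gave 5, 1, 3 and 4 P450 genes, beside 8.37%, 1.65%, 5.69% and 3.23% of all genes, and DESeq2 called 1, 0, 0 and 0, beside 27, 1, 15 and 0 of 23798 genes. With all 8 KO set against all 8 WT kidneys, no P450 gene was without overlap, beside 0% of all genes with KO higher and 0.02% with KO lower. On SFD the smallest p values were those of Cyp39a1 (0.65 ± 0.15, edgeR adjusted p = 0.398) and Cyp2d22 (0.43 ± 0.12, adjusted p = 0.453), both with every KO-SFD above every WT-SFD kidney, as was so for 1.9% of all genes. Cyp39a1 was the gene called by DESeq2. On HFD they were those of Cyp4f14 (-0.59 ± 0.20) and Cyp2j11 (-0.24 ± 0.11, both adjusted p = 1). Over both diets they were those of Cyp2a5 (0.83 ± 0.26) and Cyp2d22 (0.27 ± 0.08, both adjusted p = 0.814), and without KO-SFD-1318 and KO-SFD-1319 the value of Cyp2a5 was 0.24 (adjusted p = 1). The interaction was -0.76 ± 0.20 for Cyp39a1 and -0.79 ± 0.28 for Cyp4f14 (both adjusted p = 1).

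The diets also differed in some markers of kidney cells. Of 12 proximal tubule genes 3 rose over both genotypes, Slc5a2 (1.37 ± 0.15, edgeR adjusted p = 2.08e-05), Slc22a8 (0.98 ± 0.13, adjusted p = 0.000138) and Slc5a12 (0.94 ± 0.18, adjusted p = 0.00537), with a median of 0.01. The summed list, led by Slc34a1, ran from 14990 to 19850 FPM in WT-SFD, 13480 to 17370 in WT-HFD, 13290 to 14820 in KO-SFD and 14090 to 20890 in KO-HFD. Of 9 genes of the later tubule Slc12a3 rose (0.40 ± 0.10, adjusted p = 0.0308) and Umod fell (-0.41 ± 0.11, adjusted p = 0.0494). Of 13 adipocyte genes Lep, which passed the filter through its HFD kidneys (0 to 1.569 FPM on SFD and 1.736 to 17.16 on HFD), rose (3.99 ± 0.63, adjusted p = 0.000911) while Cfd (-3.87 ± 0.82, adjusted p = 0.00986) and Pnpla2 (-0.42 ± 0.11, adjusted p = 0.0297) fell, and the summed list ran from 222.6 to 1043 FPM. None of the tested podocyte (5), adrenal (2), smooth muscle (4), endothelial (5), fibroblast (6) or blood and leucocyte genes (3) passed. The mean log2 level of the 12 proximal tubule genes ran from 9.221 to 9.387 in KO-SFD and from 9.411 to 9.787 in KO-HFD kidneys. In WT it overlapped, with 9.377 to 9.72 on SFD and 9.203 to 9.687 on HFD. In KO a covariate made of this mean therefore cannot be told apart from the diet, and 3 of its genes were called by diet. With this covariate, the diet difference of Cyp2a5 in KO was -1.84 and did not pass (edgeR adjusted p = 0.0791), nor did Cyp4f16 over both genotypes (0.38, adjusted p = 0.101). Cyp2e1 (-0.68, adjusted p = 0.00388) and Cyp2d9 (-0.59, adjusted p = 0.0228) passed with this covariate, and Cyp4b1 was at 0.19 (adjusted p = 0.365) and Cyp2j13 at 0.22 (adjusted p = 0.309). In KO, Cyp2c38 (2.91, adjusted p = 0.0999) and Cyp2c40 (3.07, adjusted p = 0.0824) did not pass. In the fit without it, the call of Cyp2c38 in KO was lost without KO-SFD-1318, KO-HFD-1520 or KO-HFD-1558 and without both KO-SFD kidneys (4.17, adjusted p = 0.106), and that of Cyp2c40 in KO without KO-SFD-1303, KO-SFD-1318 or KO-HFD-1558 and with only the groups compared.

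Many mouse P450 genes are known to differ between males and females, and the androgen-dependent genes of the kidney are male-typical. Of 6 of these, Acsm3 fell (-1.09 ± 0.16, edgeR adjusted p = 0.000507), and Kap (-0.50 ± 0.16, adjusted p = 0.091), Odc1 (-0.55 ± 0.18, adjusted p = 0.099), Slco1a1 (-0.60 ± 0.27, adjusted p = 0.26), Slc7a13 (-0.24 ± 0.11, adjusted p = 0.278) and Gusb (-0.06 ± 0.11, adjusted p = 0.81) did not pass. The summed list, led by Kap, ran from 16960 to 26410 FPM in WT-SFD and from 9332 to 20220 in WT-HFD kidneys, which overlap. It ran from 17150 to 27400 FPM in KO-SFD and from 12670 to 16160 in KO-HFD kidneys, which do not. The part of this in the P450 result was not tested.

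The partners of the P450 enzymes did not pass the test in the kidney. None of 5 tested electron transfer genes, of 10 genes of haem synthesis and breakdown or of 3 epoxide hydrolases was called over both genotypes. The differences were 0.05 ± 0.12 for Por (edgeR adjusted p = 0.881), -0.03 ± 0.11 for its partner Cyb5a (adjusted p = 0.941), -0.34 ± 0.16 for Ephx1 (adjusted p = 0.28) and -0.24 ± 0.12 for Ephx2, which hydrolyses epoxides of arachidonic acid (adjusted p = 0.312). Of 19 tested nuclear receptors and AhR genes, Ppara, the fatty acid receptor, rose (0.79 ± 0.21, adjusted p = 0.0384) and Rara, a retinoic acid receptor, fell (-0.26 ± 0.07, adjusted p = 0.0498). In KO alone Nr0b2, a repressor of other receptors, fell (-0.89 ± 0.22, adjusted p = 0.0482). The xenobiotic sensors Nr1i2 (0.24 ± 0.17, adjusted p = 0.508), Nr1i3 (0.24 ± 0.37, adjusted p = 0.787) and Ahr (-0.01 ± 0.12, adjusted p = 0.988) did not pass.

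The aorta held far fewer P450 transcripts, 0.0211% to 0.0468% of a library, although levels cannot be tested across the tissues, which were sequenced at different places. Of the 87 genes 22 passed the filter. Per length, the order was Cyp2e1 (26.49 FPM per kb over 14 aortae), Cyp1b1 (16.19), which oxidises oestrogens and polycyclic hydrocarbons, the orphan gene Cyp20a1 (8.034), Cyp2d22 (6.415), Cyp4b1 (4.263) and Cyp27a1 (4.145). The place of Cyp2e1 rests on a few mice. Cyp2e1 led the summed P450 level in WT-SFD-1309, WT-SFD-1310 and KO-SFD-1319, and Cyp1b1 in the other 11. The sum was 417.7 ± 160.8 FPM in WT-SFD (n = 3), 254.6 ± 12.8 in WT-HFD (n = 4), 350.7 ± 113.4 in KO-SFD (n = 3) and 253.6 ± 14.5 in KO-HFD aortae (SD, n = 4).

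Of the 22 genes tested, 0 were called by diet in WT and 0 in KO, as was 0% of all 14796 genes in either. At an unadjusted p under 0.05 edgeR gave 9 in WT and 4 in KO, beside 16.7% and 7.47% of all genes. DESeq2 called 2 and 1, and 635 and 8 of all 26846 genes it fitted. Over both genotypes 2 were called (9.09%, against 3.79% of all genes), both lower on HFD. Of the 18 genes that exceeded the filter's limit in at least 3 aortae of each diet, a choice made after seeing the data, 1 was called (Cyp2e1; 5.56%, against 3.6% of 13585 genes). The median log2 fold change of the 22 was -0.31, beside -0.00 for all genes. Cyp2e1 (ENSMUSG00000025479, chr7:140763739-140774987, plus strand) stood at 262.2, 216 and 12.4 FPM in WT-SFD, 8.98, 7.34, 11.05 and 6.01 in WT-HFD, 213.1, 44.58 and 10.15 in KO-SFD and 1.83, 4.51, 1.28 and 0.821 in KO-HFD aortae. The SFD groups held aortae with high and with low values. The low one of WT-SFD (12.4 FPM) lay close to WT-HFD aortae (up to 11.05 FPM). That of KO-SFD (10.15 FPM) stood further above KO-HFD aortae (0.821 to 4.51 FPM). Cyp2f2 (ENSMUSG00000052974, chr7:27119909-27133660, plus strand), best known as a naphthalene oxidase of the lung, stood at 14.6, 10.77 and 0.289 FPM in WT-SFD, 0.408, 0.302, 0.626 and 0.384 in WT-HFD, 9.38, 3.34 and 0.272 in KO-SFD and 0.245, 1.03, 0.4 and 0 in KO-HFD aortae. Its 4 high SFD aortae were those high in Cyp2e1, and the gene passed the filter only through them. It overlaps a gene on the other strand (Gm15883).

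Over both genotypes Cyp2e1 fell by 4.82 ± 0.69 on the log2 scale (edgeR adjusted p = 0.0208) and Cyp2f2 by 3.73 ± 0.76 (adjusted p = 0.0222). The 4 aortae with the highest Cyp2e1 were the 4 with the highest adipocyte transcripts. The sum of 13 adipocyte markers, of which Plin4 was the most abundant, was 5223, 3798 and 534.5 FPM in WT-SFD, 492 to 655.1 in WT-HFD, 3273, 1330 and 524.4 in KO-SFD and 480.2 to 595.3 in KO-HFD. Of the 13, 11 fell over both genotypes, and Adipoq ran from 1.368 to 195.4 FPM. With the marker mean as a covariate the values were -1.76 for Cyp2e1 (edgeR adjusted p = 0.059) and 0.0898 for Cyp2f2 (adjusted p = 0.998). In KO alone Cyp2e1 passed with this covariate (-2.44, adjusted p = 0.0376), while it did not without it (-5.35 ± 1.03, adjusted p = 0.556). Without the 4 aortae, a choice made after seeing the data, 1 library per SFD group is left, assumed to vary like the other groups. Cyp2e1 was then at -1.39 over both genotypes, -0.56 in WT and -2.22 in KO, and Cyp2f2 was not tested. Leaving out single aortae moved the number of P450 genes called between 0 and 5, and that of all genes called between 0 and 1855 (1855 without WT-SFD-1445), so the background share of 3.79% moved with single libraries too. Per the labels the aortae had been freed of adjacent fat.

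**Figure D5:**
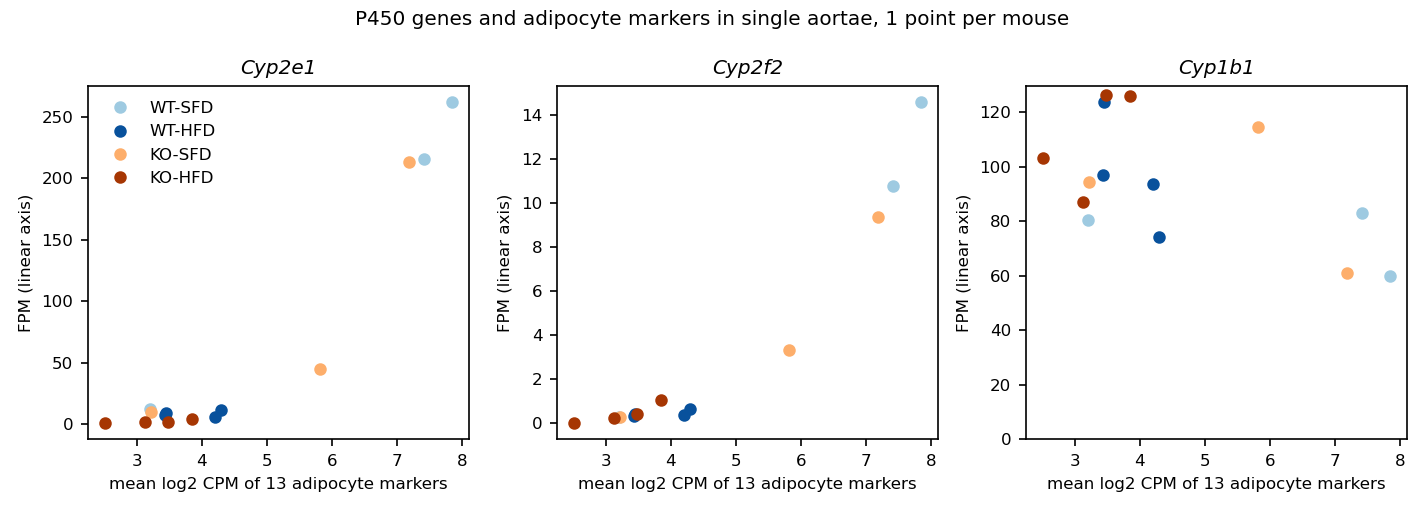
FPM of Cyp2e1, Cyp2f2 and Cyp1b1 in single aortae on linear axes against the mean log2 CPM of 13 adipocyte markers, coloured by group. The 4 SFD aortae to the right hold the highest values of Cyp2e1 and Cyp2f2, and Cyp1b1 does not show this.

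Among the other aortic members, Cyp1b1 stood at 74.4 ± 12.7, 97.2 ± 20.4, 89.9 ± 27.1 and 110.6 ± 19.1 FPM in WT-SFD, WT-HFD, KO-SFD and KO-HFD (SD, n = 3, 4, 3 and 4) and did not pass (0.34 ± 0.15, edgeR adjusted p = 0.242). Cyp2d22 (-0.38 ± 0.17, adjusted p = 0.24), Cyp4b1 (-0.34 ± 0.24, adjusted p = 0.481), Cyp27a1 (-0.39 ± 0.15, adjusted p = 0.177) and Cyp20a1 (0.20 ± 0.20, adjusted p = 0.648) did not pass either. With the adipocyte covariate Cyp2d22 turned to 0.0458 and Cyp20a1 to -0.0368. The closest to the limit were Cyp2j6 (-0.72 ± 0.19, adjusted p = 0.057), the vitamin D hydroxylase Cyp2r1 (0.97 ± 0.28, adjusted p = 0.0717) and Cyp4v3 (-0.55 ± 0.17, adjusted p = 0.084). Among partners and regulators Ephx2 (-1.59 ± 0.30, adjusted p = 0.0208), Ahr (-1.07 ± 0.25, adjusted p = 0.0323) and Ppara (-2.23 ± 0.51, adjusted p = 0.0296) fell in the aorta, each highest in WT-SFD-1309, WT-SFD-1310 and KO-SFD-1319. Ephx1 (0.04 ± 0.13), Por (-0.47 ± 0.17) and Cyb5a (-0.27 ± 0.11) did not pass. None of 5 electron transfer, 10 haem, 3 proximal tubule, 1 later tubule, 2 podocyte, 3 adrenal, 2 liver, 4 smooth muscle, 6 fibroblast or 3 blood and leucocyte genes tested was called. Of 5 tested endothelial genes Kdr fell (-2.75 ± 0.53, adjusted p = 0.0208) and of 3 tested androgen-dependent kidney genes Acsm3 fell (-3.53 ± 0.57, adjusted p = 0.0208). Both were also highest in the 4 adipocyte-rich aortae.

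No P450 gene of the aorta was called between the genotypes on SFD, on HFD or over both diets, nor for the interaction, beside 0.0811%, 0.0811%, 0.196% and 0% of all genes. At an unadjusted p under 0.05 edgeR gave 2, 0, 0 and 1, beside 6.14%, 5.04%, 6.9% and 4.1% of all genes, and DESeq2 called 0 in each, beside 19, 41, 54 and 0 of 26846 genes. The smallest p values on SFD were those of Cyp39a1 (0.81 ± 0.28, edgeR adjusted p = 0.776) and Cyp2u1, a fatty acid hydroxylase (-0.95 ± 0.43, adjusted p = 0.799), whose sign turned to 0.11 without the 4 adipocyte-rich aortae. On HFD they were those of Cyp2e1 (-1.94 ± 1.02) and Cyp39a1 (-0.43 ± 0.24, both adjusted p = 0.999). Over both diets they were those of Cyp2e1 (-1.41 ± 0.68, adjusted p = 0.728) and Cyp27a1 (-0.27 ± 0.15, adjusted p = 0.769). The interaction was -1.24 ± 0.37 for Cyp39a1 and 1.20 ± 0.57 for Cyp2u1 (both adjusted p = 1).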

How the data were processed

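RNA of kidneys and aortae was sequenced paired-end after ribosomal RNA depletion, 1 library per mouse. The authors trimmed the reads with cutadapt, used Tophat2 and Bowtie2 for alignment (GRCm38/mm10), and deposited raw counts per gene from featureCounts. A company sequenced the kidneys and a university facility the aortae, so each tissue was analysed alone. Genes were annotated by the authors through BiomaRt. The strand setting, the handling of multi-mapping reads and the gene models used for counting are not given in the sources used here.

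Counts were filtered with filterByExpr (0.512 CPM in kidney, 1.11 in aorta), scaled by TMM and fitted with edgeR 4.0.16 (quasi-likelihood, R 4.3.3), with 1 coefficient per group and all 4 groups of a tissue in 1 fit. P-values were adjusted (Benjamini-Hochberg) over 15034 genes in kidney and 14796 in aorta, and an adjusted p under 0.05 was a call. Errors of log2 fold changes are standard errors. Genes lacking counts on chromosomes 9 and X were not analysed here. On data simulated for HFD against SFD in WT, 86% of genes changed 2-fold and 100% changed 4-fold were recovered in kidney (15034 genes simulated). In aorta (14796 genes simulated) it was 52% and 99%. The changed genes were drawn from those with a mean over 2 CPM, and all genes of a tissue had the same fixed spread. Lower genes and the uneven adipocyte transcripts of the SFD aortae were not simulated, so these shares do not hold for them. Total counts, 16354880 to 28331314 in kidney and 6403699 to 13052870 in aorta, limit what can be seen of low genes. No libraries of a tissue agreed within sampling noise. Levels per length are FPM per kb of union exon in GENCODE, and sequences are from RefSeq.

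Named were members called in any comparison, the 10 (kidney) and 6 (aorta) highest per length, the 2 with the smallest p in each comparison, the highest examples of each role, and called genes of the partner and regulator lists. Members and lists were chosen with earlier results of these data known. Alternatives were DESeq2 1.42.0, other scalings and filters, the study's limit of 0.001, covariates and leaving out libraries.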

Additional observations from a re-analysis of the deposited data

Results flagged for a closer look

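Of 94 groups of 4 samples examined, 7 held a sample whose gap to the nearest other exceeded Dixon's limit of 0.829 of the group's range, and chance gives about 1 in 20. In kidney, Cyp2a4 was at 506.8 FPM in WT-SFD-1694, against 666.4 to 691.2 FPM in the others of its group, and at 714.1 FPM in WT-HFD-1613, against 478.2 to 514.7 FPM. Cyp2d12 was at 44.3 FPM in KO-HFD-1504, against 27.88 to 28.87 FPM. Cyp2j5 was at 1050 FPM in KO-SFD-1318, against 1080 to 1086 FPM. Cyp39a1 was at 8.77 FPM in WT-SFD-1694, against 5.97 to 6.19 FPM. In aorta, Cyp20a1 was at 35.7 FPM in WT-HFD-1448, against 15.81 to 18.39 FPM, and Cyp2d22 at 16.3 FPM in KO-HFD-1505, against 24.7 to 25.36 FPM.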

How the results depend on the processing

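Of 25 calls on named genes, 14 stayed past an adjusted p of 0.05 in every alternative fit in which they were tested. They include calls of Cyp2c38, Cyp2c40 and Cyp2c69, which exceeded the filter's limit in one diet only and carry no weight as a count. The rest were Cyp2d12 and Cyp2d26 in WT, in KO and over both genotypes, and Cyp2a5 and Cyp2d22 over both genotypes, all in kidney. At the study's limit of 0.001 the same holds for Cyp2c69, the 1 gene called in WT and in KO kidney, and for Cyp2c40. These 2 were called over both genotypes together with Cyp2d12 and Cyp2d26. The number of P450 genes called by diet was 1 in WT, 1 in KO and 4 over both genotypes in kidney, and 0 over both in aorta. With DESeq2 it was 11 in KO kidney, 2 in WT aorta, 1 in KO aorta and 5 over both genotypes in aorta, and 1 (Cyp39a1) in KO against WT kidney on SFD, beside 666 of 23798 genes in KO kidney, 635, 8 and 991 of 26846 in aorta and 27 in KO against WT kidney. In KO kidney it was 3 with only the compared groups fitted (228 of 14501 genes) and 4 without KO-SFD-1318 and KO-SFD-1319 (99 of 15514). In aorta it was 2 in WT and 1 in KO without the filter (527 and 6 of 26846 genes), 2 in WT with library totals (219 of 14796), and 1 in KO (Cyp2e1, of 2 genes in all) and 0 over both with the adipocyte covariate. Without the 4 adipocyte-rich aortae it was 0 over both genotypes. Among genes over the filter's limit in each diet alone it was 4 in KO kidney, 6 over both genotypes in kidney and 1 over both in aorta.

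Leaving out 1 library gave 4 to 6 calls in WT kidney (92 to 116 of all genes), 3 to 8 in KO kidney (196 to 403 of all genes, 3 without KO-SFD-1318 or KO-HFD-1558), 7 to 11 over both genotypes in kidney (488 to 721 of all genes), 0 to 6 in WT aorta (6 without WT-SFD-1445, beside 1801 of 15329 genes) and 0 to 5 over both in aorta (5 without WT-SFD-1445 or KO-SFD-1507, 0 without WT-SFD-1309, WT-SFD-1310, KO-SFD-1319, WT-HFD-1442, WT-HFD-1443, WT-HFD-1448, KO-HFD-1454, KO-HFD-1504 or KO-HFD-1505). In aorta the sign turned with the adipocyte covariate for Cyp2f2 in KO (0.31) and over both genotypes (0.0898), Cyp20a1 (-0.0368) and Cyp2d22 (0.0458), and without the 4 aortae for Cyp20a1 (-0.0866), Cyp2d22 (0.0664) and Cyp2u1 in KO against WT on SFD (0.11). Over all genes, diet calls over both genotypes were 674 in kidney (DESeq2 1082, 405 without both kidneys) and 561 in aorta (DESeq2 991, 1 with the covariate, 0 to 1855 with 1 aorta left out). No paired analysis was possible because the labels give animal numbers that no groups of a tissue share. Genes under the filter could not be compared at this depth.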
